A study of Mus musculus with 4 samples.

Results

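The 10 genes described here code for the receptors, receptor substrates, ligands and binding proteins of insulin and insulin-like growth factor (IGF) signalling: Insr, Igf1r, Irs1, Irs2, Igf1, Igf2, Igfbp2, Igfbp3, Igfbp5 and Igfbp7. They were taken by symbol from a table of 43280 genes, and all 10 were found. Expression had been measured by mRNA sequencing of retinas from wildtype mice of a strain labelled C6/BL6J. The STZ group had been given streptozotocin at 50 mg/kg on each of 5 days from 6 weeks of age, with blood glucose above 25 mM checked 10 days later, and the control group had been given citrate buffer. Retinas of both groups were collected at 18 weeks of age, with 2 libraries in each group. A library is named by its group and by the tag of its table column, 2L or 4R, and a pair of values for a group is given below as 2L, then 4R. The 4R tag matches no label, since the labels give 4L, so those columns are assigned to a group but not to a labelled sample. A time tag in the column names does not match the ages above, which are those of the labels' protocols. Nothing in the labels tells whether different animals gave the libraries of one group. The p-values below therefore rest on a spread between samples that could be technical only.

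Insulin binds the insulin receptor and IGF-1 and IGF-2 bind chiefly the IGF-1 receptor. Both receptors are tyrosine kinases that phosphorylate the substrates IRS1 and IRS2, which recruit PI3 kinase and thereby switch on AKT. The IGF binding proteins hold the ligands in extracellular fluid and set how much reaches the receptor. Streptozotocin kills the insulin-producing beta cells of the pancreas, so circulating insulin falls, and mice without Irs2 are known to lose photoreceptors.

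Reads assigned to genes ranged from 29352330 to 39299653 per library. Rod markers were abundant in all 4 libraries, their summed normalized counts being 2438090 and 3246580 in STZ retinas, against 2785180 and 3047950 in controls, which fits the label of retina. The library STZ 2L stood apart: 10 lens markers took 6.99% of its reads, against at most 0.0136% in any other library. All 10 cornea and conjunctiva markers lay higher in both STZ libraries than in both controls, with sums of 10473 and 10908 in STZ retinas, against 1774 and 818 in controls. Values below are normalized counts, that is, reads per gene after division by a size factor particular to each library. In bulk tissue, fewer cells of a type and less RNA per cell cannot be told apart.

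None of the 10 genes passed the test between STZ and control retinas (limma, adjusted p = 0.999 for each), and neither did any other of the 18127 genes tested (0%). DESeq2, run as an alternative, called 52 genes, none of them a member. All 10 exceeded the minimum level for testing. None had an unadjusted p under 0.05, against 2.76% of all genes. In none did the STZ libraries lie wholly above or wholly below the controls, against 28.7% of all genes. Apart from Igfbp7, the members had log2 fold changes between -0.13 and 0.26, and their median over all 10 was 0.03, beside -0.01 over all genes tested. The 95% intervals given below show how large a change the 4 libraries leave room for.

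**Figure D1:**
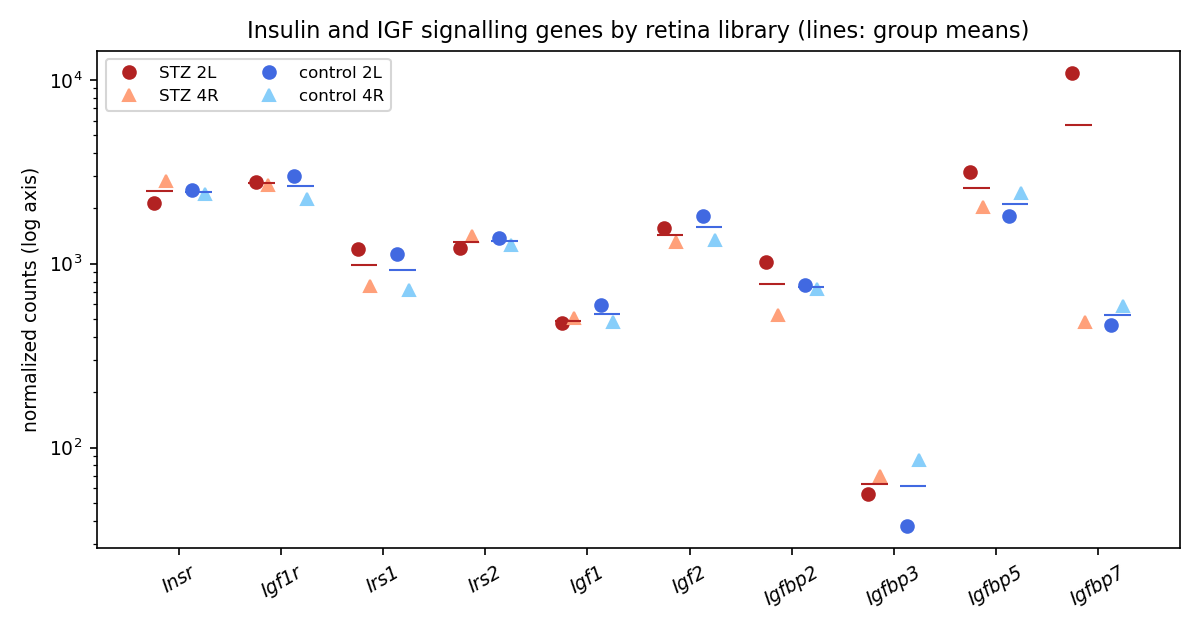
Normalized counts (log axis) of the 10 genes in each retina library, STZ left of control, circles for 2L and triangles for 4R, with a line at each group mean. The groups overlap for every gene, and Igfbp7 in STZ 2L, at 10836, stands far above its other 3 values.

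The receptor genes were both well expressed. Insr, the insulin receptor (chromosome 8, 3122061 to 3279617, mm10), read 2140 and 2813 in STZ retinas, against 2520 and 2380 in controls. Both controls lay between the STZ libraries. Its log2 fold change was 0.00 ± 0.18 (SE), with a 95% interval from a 0.753-fold to a 1.33-fold STZ level. Igf1r, the IGF-1 receptor (chromosome 7, 67952827 to 68233668), read 2778 and 2680 in STZ retinas, against 3015 and 2261 in controls. Here the STZ values lay between the controls, and the log2 fold change was 0.06 ± 0.18 (0.784-fold to 1.39-fold). Receptor protein and its phosphorylation were not measured.

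Neither substrate differed between the groups beyond the spread of its libraries. Irs1 (chromosome 1, 82233101 to 82291416) read 1208 and 756 in STZ retinas, against 1134 and 719 in controls. Its level in 2L was 1.60 times that in 4R among STZ libraries and 1.58 times among controls, while the group means were 982 ± 320 and 927 ± 293 (SD, n = 2) in STZ and control. The log2 fold change was 0.08 ± 0.29 (0.669-fold to 1.67-fold). Of the 10 genes, 5 had both 2L libraries on one side of both 4R libraries, close to the 42.8% of all tested genes that did. Igf1r, Irs1, Igf2 and Igfbp2 were higher in 2L, and Igfbp3 was lower. Irs2 (chromosome 8, 10984681 to 11008458) was the steadiest member per library, reading 1218 and 1406 in STZ retinas, against 1381 and 1262 in controls. Its highest library was 1.15 times its lowest, and the log2 fold change was -0.01 ± 0.17 (0.756-fold to 1.30-fold). Of the 10 genes it had the narrowest interval. In liver, insulin is known to repress Irs2 by removing FOXO factors from the nucleus.

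The promoters of both substrates are shown because insulin is known to repress genes such as Irs2 through an insulin response sequence, searched here as TGTTTTG. The 250 bases before each annotated start (RefSeq, GRCm38.p6, gene strand) are printed with matches to that motif in capitals, for Irs1 at chr1:82291440-82291689 (minus strand) and for Irs2 at chr8:11008930-11009179 (minus strand).
Irs1: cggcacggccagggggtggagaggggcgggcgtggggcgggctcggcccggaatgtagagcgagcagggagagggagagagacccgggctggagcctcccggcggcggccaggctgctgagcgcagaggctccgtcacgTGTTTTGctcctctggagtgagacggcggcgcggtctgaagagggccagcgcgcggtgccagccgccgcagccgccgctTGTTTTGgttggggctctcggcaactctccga
Irs2: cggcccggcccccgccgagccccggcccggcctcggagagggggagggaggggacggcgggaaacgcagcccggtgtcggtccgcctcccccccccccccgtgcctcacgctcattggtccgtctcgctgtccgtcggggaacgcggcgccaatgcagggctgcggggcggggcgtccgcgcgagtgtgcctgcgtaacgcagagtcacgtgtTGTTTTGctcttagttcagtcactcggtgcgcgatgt
Irs1 held the motif 111 and 32 bases before its RefSeq start, and Irs2 held it 37 bases before. The GENCODE starts of these genes lie further downstream, at 82291416 and 11008458, so distances from those are larger. On either strand it occurred in 5.56% of the 32851 promoter windows, and in Irs1 and Irs2 but in no other of the 9 members with a window. The canonical FOXO motif, GTAAACA, occurred in 0 of the 9 and in 3.17% of all windows. In all, 8 short motifs were searched, of which 5 are not described here. The choice was made after the values and matches were seen. A match describes letters only, and for both genes the STZ values overlapped the control values.

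Both ligands were detected in the retina libraries, while insulin itself was barely detected. Igf1 (chromosome 10, 87858265 to 87937042) read 475 and 504 in STZ retinas, against 593 and 479 in controls. Both STZ values lay within or just under the control range, with a log2 fold change of -0.12 ± 0.21 (0.659-fold to 1.28-fold). Igf2, the IGF-2 gene known for its imprinting (chromosome 7, 142650766 to 142666816), read 1565 and 1307 in STZ retinas, against 1817 and 1343 in controls. STZ 4R was the lowest and control 2L the highest, with a log2 fold change of -0.13 ± 0.20 (0.666-fold to 1.26-fold). The annotation puts the antisense gene Igf2os and a longer gene model, Gm49394, over Igf2. Igf2os had values of its own, 43.3 and 21.5 in STZ retinas, against 21.6 and 19.1 in controls. The strand setting of the counting is not given in the sources used here, so reads in shared bases cannot be told apart. Genes on the opposite strand also overlap Insr, Irs1, Irs2, Igf1 and Igfbp7, and the same limit holds there. The insulin gene Ins2 had 0 reads and 2 in STZ retinas, against 2 and 2 in controls. Ins1 had 0 reads in each library, which allows up to 3 reads.

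The members of the binding protein family share a cysteine-rich stretch, shown because it is where the family resemblance of these 4 genes can be read. Each line gives coding bases of the reference transcript (GENCODE M21, mm10), with the 8 codons of the stretch in capitals.
Igfbp2: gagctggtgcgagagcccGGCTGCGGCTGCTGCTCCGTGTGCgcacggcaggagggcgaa
Igfbp3: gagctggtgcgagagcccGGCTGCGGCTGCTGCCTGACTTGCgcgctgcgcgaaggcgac
Igfbp5: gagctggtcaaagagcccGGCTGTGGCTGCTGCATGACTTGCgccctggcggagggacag
Igfbp7: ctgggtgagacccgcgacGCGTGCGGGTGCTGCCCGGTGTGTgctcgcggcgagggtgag
The stretch opens with a glycine codon in Igfbp2, Igfbp3 and Igfbp5, and with an alanine codon in Igfbp7. Over their whole proteins, as translated from these transcripts, Igfbp3 and Igfbp5 were the most alike pair, with 45.4% of residues of the shorter protein identical. Igfbp7 shared 27.0% with Igfbp2, 25.2% with Igfbp3 and 24.4% with Igfbp5. IGFBP7 is known to bind IGFs far more weakly than the classical binding proteins and is abundant in vessel walls.

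Igfbp2, a secreted binding protein that prefers IGF-2 (chromosome 1, 72824503 to 72852474), read 1015 and 528 in STZ retinas, against 764 and 730 in controls. The STZ libraries lay on either side of the controls, and the log2 fold change was -0.03 ± 0.29 (0.614-fold to 1.56-fold). Igfbp5, a matrix-bound form (chromosome 1, 72857932 to 72874884), read 3134 and 2021 in STZ retinas, against 1813 and 2421 in controls. STZ 2L was its highest library, but STZ 4R lay between the controls, and the log2 fold change was 0.26 ± 0.24 (0.820-fold to 1.76-fold). Without STZ 2L it was -0.05. Igfbp2 and Igfbp5 are neighbours whose ends lie 5457 bases apart, and in STZ the 2L level was 1.92 times that of 4R for Igfbp2 and 1.55 times for Igfbp5, whereas in controls these ratios were 1.05 for Igfbp2 and 0.749 for Igfbp5.

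Igfbp3, the main IGF carrier in blood (chromosome 11, 7206086 to 7213923), was the lowest member. It read 55.9 and 70.3 in STZ retinas, against 37.5 and 85.5 in controls. Behind the STZ values stand 53 reads (95% exact Poisson interval 39.7 to 69.3, counting error only) and 85 reads (67.9 to 105). Behind the control values stand 33 reads (22.7 to 46.3) and 85 reads (67.9 to 105). The controls differed by more than counting error, and they spanned both STZ libraries. The log2 fold change was 0.14 ± 0.48, and its interval, from 0.513-fold to 2.37-fold, was the widest after that of Igfbp7.

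Igfbp7 (chromosome 5, 77349240 to 77408041) read 10836 and 484 in STZ retinas, against 466 and 588 in controls. STZ 2L stood at 18.4 times the next highest library, and STZ 4R lay between the controls. The fold change over all libraries was 2.13 ± 1.12 on the log2 scale, with an interval from 0.729-fold to 26.2-fold (limma, unadjusted p = 0.0943, adjusted p = 0.999). Without STZ 2L it was -0.11, and without STZ 4R it was 4.37. Either omission leaves 1 STZ library, whose own spread cannot be measured. In the authors' deposited table its log2 fold change was 3.42 with a p of 0.0384 and an adjusted p of 0.9997, and no other member there had a p under 0.05.

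The lens markers were also highest in STZ 2L. Their summed level was 2444470 and 4419 in STZ retinas, against 4282 and 496 in controls, and all 10 were more than 10 times higher in STZ 2L than in each other library. None of the 10 was at 0 in any library. Igfbp7 was the 1 member that passed that fold, beside 59 of 18127 tested genes (0.325%), a threshold set after its values were seen. Fibroblast and connective tissue markers summed to 3996 and 1810 in STZ retinas, against 890 and 1614 in controls. Pericyte and smooth muscle markers summed to 4155 and 2899 in STZ retinas, against 2352 and 2616 in controls. Within that list Acta2 read 1893 in STZ 2L against at most 249 elsewhere, and Pdgfrb was also highest there, at 1096. By contrast, Rgs5, Kcnj8, Abcc9 and Notch3 were lowest in STZ 2L, at 663, 41.2, 100 and 151. Myh11 and Tagln were neither highest nor lowest in it, so the list did not rise there as a whole. Endothelial markers, of the cells that line vessels, summed to 3730 and 5355 in STZ retinas, against 4724 and 4177 in controls, and were lowest in STZ 2L. The part of these cell types in the Igfbp7 value was not tested. The annotation places Polr2b and Gm34648 over Igfbp7 on the opposite strand. Polr2b read 2352 and 3213 in STZ retinas, against 2313 and 2905 in controls, and was not at its highest in STZ 2L.

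**Figure D2:**
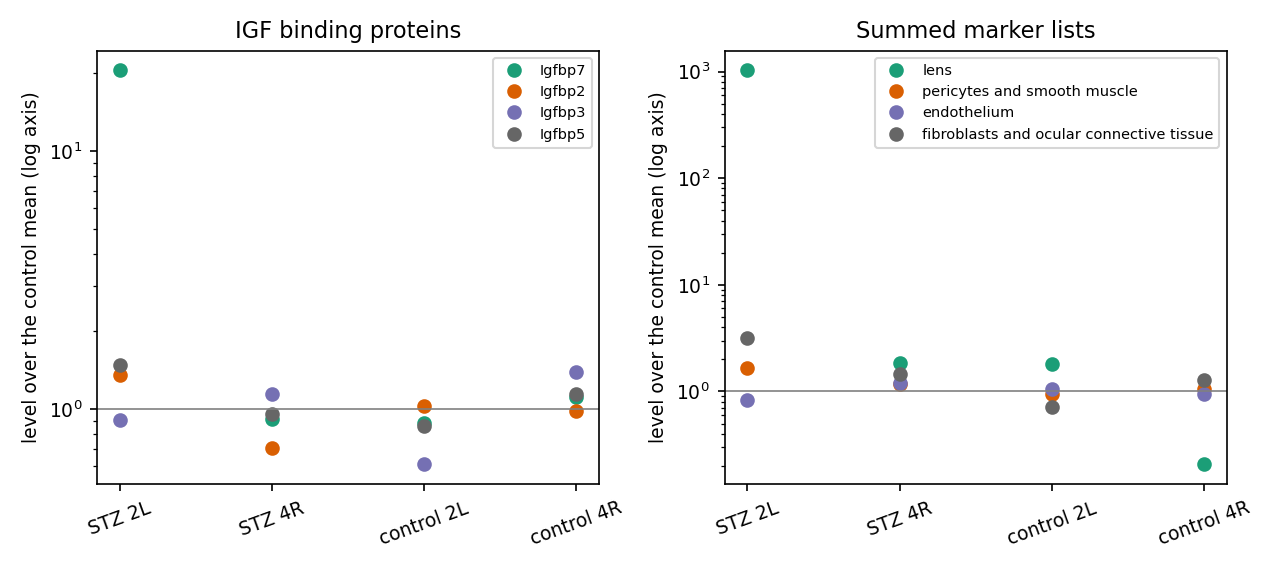
Left, the 4 binding protein genes, and right, 4 summed marker lists, each divided by its own control mean (log axes) in every library. In STZ 2L Igfbp7 stood at 20.5 times and the lens list at 1023 times the control mean, while the endothelial list stood at 0.838.

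The promoter of Igfbp7 is shown beside that of the crystallin gene Cryaa, 1 of the 10 lens markers, all of them high in the same library. Capitals mark TGCTGAC, part of the longer element bound by the MAF factors that drive crystallin genes, on either strand. The windows are the 250 bases before the annotated start (RefSeq, GRCm38.p6), chr5:77408046-77408295 (minus strand) for Igfbp7 and chr17:31677681-31677930 (plus strand) for Cryaa.
Igfbp7: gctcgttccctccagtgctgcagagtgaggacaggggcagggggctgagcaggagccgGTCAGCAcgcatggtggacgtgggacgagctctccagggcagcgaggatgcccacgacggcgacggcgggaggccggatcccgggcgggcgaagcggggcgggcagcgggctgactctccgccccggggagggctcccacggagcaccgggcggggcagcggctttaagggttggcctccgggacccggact
Cryaa: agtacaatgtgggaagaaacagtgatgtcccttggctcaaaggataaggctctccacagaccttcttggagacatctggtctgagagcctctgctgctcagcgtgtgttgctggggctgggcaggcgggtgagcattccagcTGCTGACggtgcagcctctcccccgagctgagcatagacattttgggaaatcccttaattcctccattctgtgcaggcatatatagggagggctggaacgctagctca
The motif lay 192 bases before the start in Igfbp7 and 108 bases before it in Cryaa. It occurred in 3.81% of all windows, in 2 of the 9 members (Igf2 and Igfbp7) and in 1 of the 10 lens markers, Cryaa itself. The motif and the pair were chosen after the values and matches were seen. A match describes letters only, and its part in the Igfbp7 value was not tested.

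Set per length, the members spanned a wide range of levels. Normalized counts per kilobase of annotated exon put Igfbp7, Igfbp2 and Igfbp5 in the top 4 places in all 4 libraries, with Igf2 as the other. Outside STZ 2L, Igfbp7 stood between 386 and 487 per kilobase, Igfbp2 between 286 and 414 and Igfbp5 between 302 and 403, so these overlapped. Igf2, at 229 to 318 per kilobase over all libraries, overlapped with Igfbp5 but lay above Irs2, at 193 to 222. Irs2 overlapped with Insr (156 to 205), and Insr with Igf1r (135 to 180). Irs1 (78.7 to 132), Igf1 (47.9 to 59.8) and Igfbp3 (11.99 to 27.3) followed in that order without overlap. The 6 lowest genes kept their places in 3 of the libraries, and in STZ 2L Igf1r stood just above Insr.

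**Figure D3:**
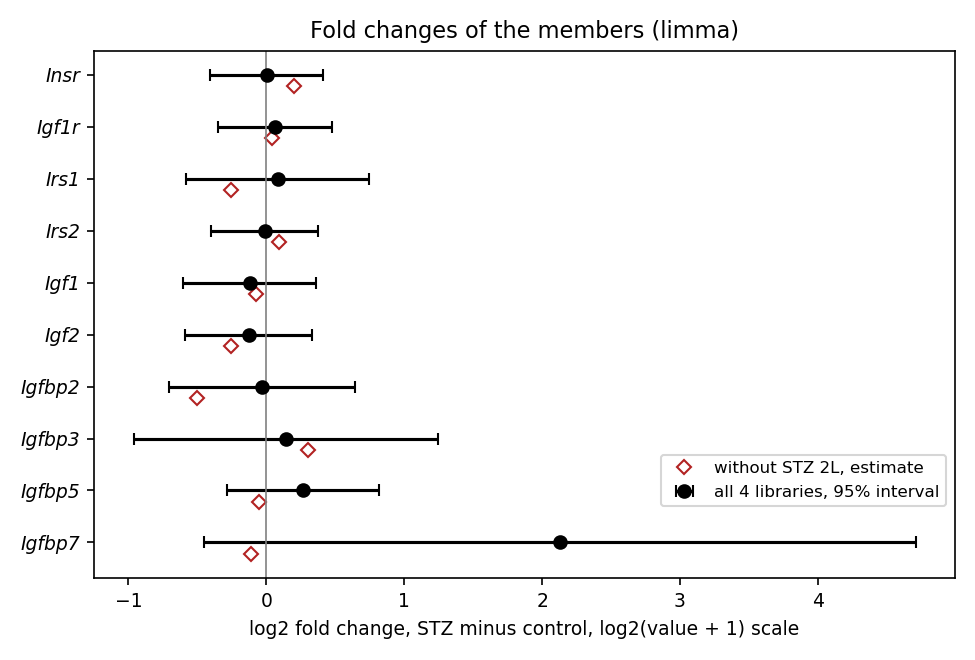
Log2 fold change of each member, STZ minus control, on the log2(value + 1) scale, with its 95% interval from limma over all 4 libraries (black) and the estimate without STZ 2L (open diamonds). All 10 intervals include 0, and the estimate for Igfbp7 is 2.13 with STZ 2L and -0.11 without it.

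Around the members, 86 further genes of the pathway were read in 7 lists, of which 78 were high enough to test. Of these 0 passed (limma, smallest adjusted p = 0.999). An unadjusted p under 0.05 came with a higher STZ level in 4 and a lower one in 1. Over all 18127 tested genes these counts were 419 and 81, together 2.76%. The STZ libraries lay above both controls in 20 and below both in 8, which is 35.9% of the 78, beside 28.7% of all genes. Among the 20, Igf2bp1, reached the minimum level only through the STZ libraries, so the filter fixed its direction. Without it 19 lay above and 8 below, or 35.1% of 77, beside 27.8% of the 17906 genes whose direction the filter did not fix. Higher genes with an unadjusted p under 0.05 were then 3 of the 77, beside 375 of the 17906. The median log2 fold change of the 78 was 0.05.

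Several listed genes control the release of IGFs from their binding proteins. Stc2, a stanniocalcin that inhibits the proteases which cut IGF binding proteins, read 72.8 and 67.0 in STZ retinas, against 131 and 119 in controls. Both STZ libraries were low, at a log2 fold change of -0.83 ± 0.33, and leaving out any 1 library gave -0.90 to -0.76 (limma, unadjusted p = 0.0348, adjusted p = 0.999). Pappa, one of those proteases, read 202 and 96.8 in STZ retinas, against 69.4 and 86.5 in controls, with a log2 fold change of 0.84 ± 0.41. Without STZ 2L it was 0.32. Pappa2, a related protease, had 782 and 679 in STZ retinas, against 578 and 558 in controls, at 0.36 ± 0.19. Stc1, the other stanniocalcin listed, read 337 and 340 in STZ retinas, against 348 and 252 in controls. Its groups overlapped, and its log2 fold change, 0.19 ± 0.25, was opposite in sign to that of Stc2. Of the 5 protease genes and inhibitors, 4 were higher and 1 lower in STZ. The share higher was 48.9% over all tested genes and 69.2% over the 78 tested pathway genes. The groups did not overlap in 3 of the 5 (60%, beside 28.7% of all genes).

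Of the 7 tested ligands, receptors and carriers, 6 were higher in STZ and none passed. Without Igf2bp1, whose direction the filter fixed, 5 of 6 were higher, beside 48.9% of all tested genes and 69.2% of the 78 pathway genes. Igfbp4, an inhibitory binding protein that PAPPA cuts, read 1553 and 1309 in STZ retinas, against 1251 and 970 in controls, at a log2 fold change of 0.37 ± 0.19. Insrr, the insulin receptor-related receptor, read 229 and 143 in STZ retinas, against 101 and 123 in controls, at 0.69 ± 0.33 and at 0.36 without STZ 2L. Igf2bp1, a protein that binds Igf2 mRNA, read 51.7 and 14.9 in STZ retinas, against 9.10 and 5.03 in controls, at 1.89 ± 0.77. It is also 1 of the 4 higher genes with an unadjusted p under 0.05. Igfals, the acid-labile subunit of blood IGF complexes, was not tested. It was picked out after its values were seen, at 86.5 and 6.62 in STZ retinas, against 6.82 and 9.05 in controls.

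Below the receptors, no list held a gene that passed. The list of PI3K and AKT kinases and their brakes had a median log2 fold change of 0.05 over 14 genes, with Pdpk1, the kinase that activates AKT, at 0.19 ± 0.15 and Phlpp1, a phosphatase of AKT, at 0.21 ± 0.16. Trib3, a pseudokinase that binds AKT and a stress-response target, read 375 and 268 in STZ retinas, against 492 and 432 in controls, at -0.54 ± 0.24 (limma, unadjusted p = 0.0579). Medians were 0.04 for the 13 genes of the mTOR arm, 0.01 for the 11 tested FOXO, GSK3 and glucose output genes and 0.02 for the 12 Ras and MAP kinase genes. In the mTOR arm Rptor, the substrate-binding subunit of mTORC1, stood at a log2 fold change of -0.15 and Deptor, an mTOR inhibitor, at 0.18. Slc2a4, the insulin-responsive glucose transporter, stood at 0.44 and the FOXO family gene Foxo4 at -0.20. Dusp6, a phosphatase of ERK, stood at -0.17. Nras, a Ras protein, read 635 and 457 in STZ retinas, against 362 and 377 in controls, at 0.54 ± 0.23. Sesn3, a sestrin that FOXO factors induce, read 1592 and 1314 in STZ retinas, against 1088 and 1101 in controls, at 0.40 ± 0.17. Both had unadjusted p values just under 0.05 (limma, 0.0471 for Nras and 0.0494 for Sesn3) and an adjusted p of 0.999.

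Among receptor adaptors and inhibitors, Grb14, an inhibitor of the insulin receptor known in photoreceptors, read 156 and 187 in STZ retinas, against 163 and 204 in controls, at -0.09 ± 0.28. Ptpn2, a tyrosine phosphatase, stood at a log2 fold change of 0.31. Shc1, an adaptor to the Ras pathway, read 896 and 404 in STZ retinas, against 461 and 358 in controls, and Eif4ebp1, the mTOR target that restrains translation, read 190 and 50.4 in STZ retinas, against 53.5 and 49.3 in controls. Enpp1, a membrane protein that binds and inhibits the insulin receptor, read 132 and 38.0 in STZ retinas, against 17.1 and 31.2 in controls. All 3 had their highest value in STZ 2L. Their log2 fold changes were 0.57 for Shc1, 0.92 for Eif4ebp1 and 1.58 for Enpp1, and without STZ 2L they were -0.01, -0.02 and 0.70. Without STZ 4R they were 1.14, 1.87 and 2.46, with only STZ 2L left in its group, whose own spread cannot then be measured. That library held the lens share of 6.99%. The relation of these 3 genes to the lens reads was not tested.

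**Figure D4:**
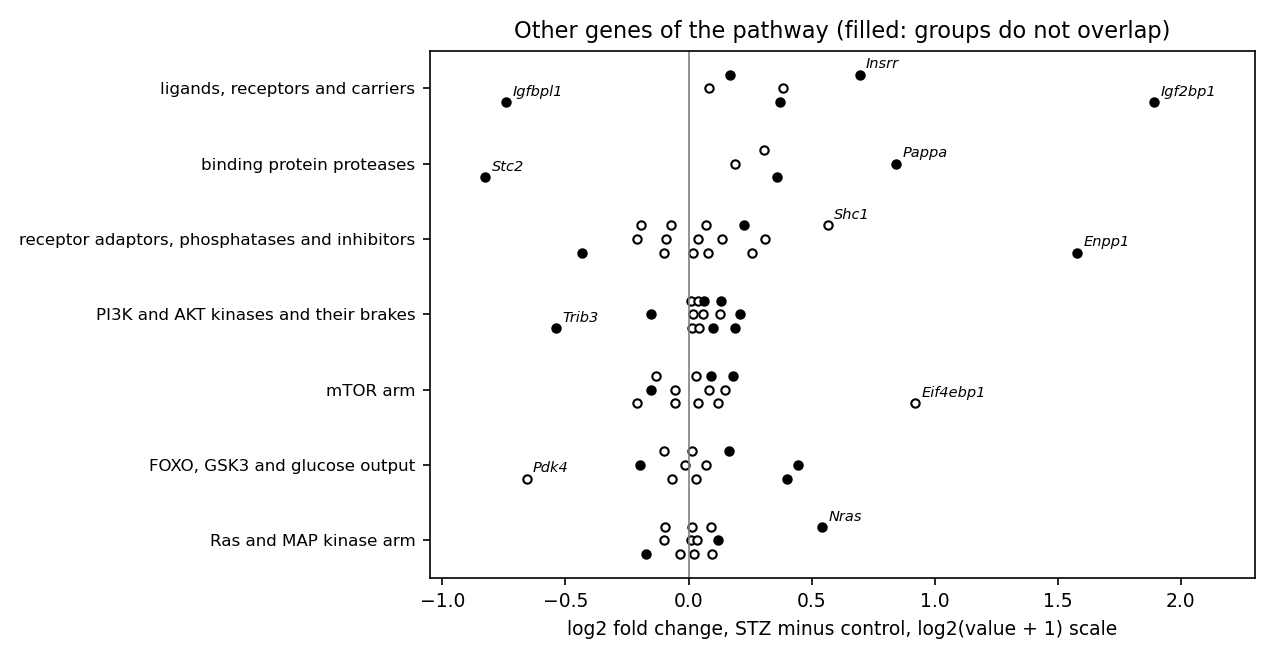
Log2 fold changes, STZ minus control, on the log2(value + 1) scale, of the 78 tested pathway genes outside the members, by list. Filled points mark genes whose STZ and control libraries do not overlap, which holds for 28 of the 78, and gene names mark differences over 0.5.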

How the data were processed

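Per the labels' protocols, polyadenylated RNA of retina was sequenced as Ion Torrent libraries, reads were aligned to mm10 with STAR and the remainder with Bowtie2, and genes were counted with HTSeq and Picard. No source used here gives the annotation, the strand setting or the software of the authors' comparison. The deposited signal is a normalized count, the reads of a gene over a size factor, and the authors added its mean. The authors' deposited table also holds, for their comparison, a log2 fold change, its error, a test score, and a p-value before and after adjustment. All values (100%) were whole multiples of 1 step per library, to within 0.01 reads, so reads were recovered as values over that step. Since the deposited values are normalized counts, count tests on these reads serve as alternatives only. DESeq2 on these reads gave the members the log2 fold changes of the authors' table, such as 3.42 for Igfbp7.

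Testing used limma 3.58.1 (R 4.3.3) and covered genes reaching 10 normalized counts in 2 or more libraries. The scale was log2(value + 1), with a prior that follows mean expression (6.17 degrees of freedom), treatment as the only term, and two-sided p-values adjusted by Benjamini-Hochberg over all genes tested, with a threshold of 0.05. Fold changes are on that scale, where those of low genes come out too small. Their errors are standard errors. The procedure was also run on simulated data, in which changed genes had large changes and no library was an outlier. That run therefore does not bear on small changes or on a library such as STZ 2L. Scaling by TMM, by quantiles or without lens and cornea markers moved the median of all genes by 0.01, -0.03 and 0.01 on the log2 scale.

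The members, gene lists, tests and alternatives were chosen with earlier results of these data known. Named genes are the 10 members, the up to 3 genes with the smallest p in each pathway list, Grb14 and Ins2, of which 1 is not reported here. Igfals, Stc1, Polr2b, Cryaa, and Acta2 with the other genes of its marker list were named after their values were seen. Positions and exon lengths come from GENCODE M21 (mm10), which matched all 10 members. Promoters come from RefSeq tables (GRCm38.p6), which matched 9. Exact Poisson intervals at 95% cover counting error only. The alternatives were edgeR 4.0.16, DESeq2 1.42.0 and limma-voom on recovered reads, other scalings, filters and pseudocounts, robust moderation, a replicate block and each library left out.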

Additional observations from a re-analysis of the deposited data

How the results depend on the processing

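With all 4 libraries, 0 members and 0 pathway genes passed under any alternative, and the groups overlapped for all 10 members. The count over all genes stayed at 0 in both directions except with DESeq2 on recovered reads (52 higher), with no filter on low values (13 higher) and with robust moderation (3 higher); the cause was not tested. Leaving out 1 library in turn gave 8 to 551 higher and 0 to 40 lower genes (551 and 40 without STZ 4R, 62 and 13 without STZ 2L, 9 and 0 omitting control 2L, 8 and 0 omitting control 4R), the lone library being assumed to vary like the others. Members and pathway genes passing in those fits are not counted here, since 1 library has no spread of its own. The omissions gave 3 to 7 members whose groups did not overlap (3 without control 2L, 4 without STZ 2L, 6 without control 4R and 7 without STZ 4R). Beside these stand 59.8%, 65.1%, 63.9% and 68.5% of all genes tested under those omissions. The same omissions moved the log2 fold change across 0 for 10 members: from -0.20 to 0.20 for Insr, -0.14 to 0.27 for Igf1r, -0.26 to 0.42 for Irs1, -0.12 to 0.091 for Irs2, -0.28 to 0.032 for Igf1, -0.34 to 0.091 for Igf2, -0.50 to 0.44 for Igfbp2, -0.44 to 0.72 for Igfbp3, -0.052 to 0.58 for Igfbp5 and -0.11 to 4.37 for Igfbp7. They did so too for Shc1 (-0.0090 to 1.14), Eif4ebp1 (-0.024 to 1.87) and Grb14 (-0.26 to 0.071). Irs2 stood at 0.00081 with limma-voom, and Igfbp2 at 0.058 with edgeR and 0.044 with DESeq2, on recovered reads. The labels do not say that replicate numbers pair animals, and deviations of the 2L libraries correlated at 0.0988 over 18127 genes; with the column tag as a replicate block 0 genes passed in either direction. In this balanced layout such a block cannot move a fold change. Low counts limit what can be said of Igfbp3, Ins1 and Ins2.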
